A study of Homo sapiens with 12 samples.

Results

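The 52 genes described here encode the machinery that copies DNA and divides the cell, each measured by 1 listed probe set out of 54675 on the array. They were chosen by name, as genes whose RNA is known to rise in cycling cells, and all 52 probe sets were found. The cells were HMLER cells, human mammary epithelial cells that carry an activated Ras oncogene and were left untreated. Flow cytometry had separated them in 2 sorts. The first sort gave GD2+ cells, which display GD2, a sugar-bearing lipid of the ganglioside class, on their surface, and GD2- cells, which do not. The second gave CD44high cells, with much of the hyaluronan receptor CD44 and little CD24, and CD24high cells with the opposite surface profile. Each of the 4 populations was measured on 3 arrays, 12 in all. All groups share the same cell line, and the labels leave unsaid whether the 3 arrays stand for 3 cultures, so every p-value is set against a spread between arrays that may be technical. Short codes among the labels of the GD2 arrays could be read with the 2 populations exchanged, so GD2+ and GD2- below name the labelled arrays. Of all the probe sets, only those of the 52 genes are paired with a gene in the tables used here, so epithelial and sort markers were not examined on the arrays.

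Cell cycle genes are switched on in waves. Around the start of DNA synthesis, E2F factors released from the RB protein activate genes for helicase loading, the replication fork and nucleotide supply. Before mitosis, the MuvB complex with B-MYB and FOXM1 activates genes for the cyclin B kinase, the spindle and the kinetochore, through promoter elements called the CHR and the CCAAT box. In resting cells the same promoters are held silent. HMLER cells are known to carry the large T antigen of a simian virus, which binds RB and p53 proteins and so loosens this control.

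On average over the 52 genes, 1 array stood apart. Values are log2 values as deposited. Averaged over the 52 genes and set against the mean of 11 arrays, the level lay between -0.27 and 0.28 log2 units on 11 arrays and at -3.06 on the array labelled GD2- replicate 3. Its mean log2 value over the 52 genes was 7.75, against 10.81 over the other 11 arrays. The heat map of all 52 genes shows this array as a single column that stands out.

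**Figure D1:**
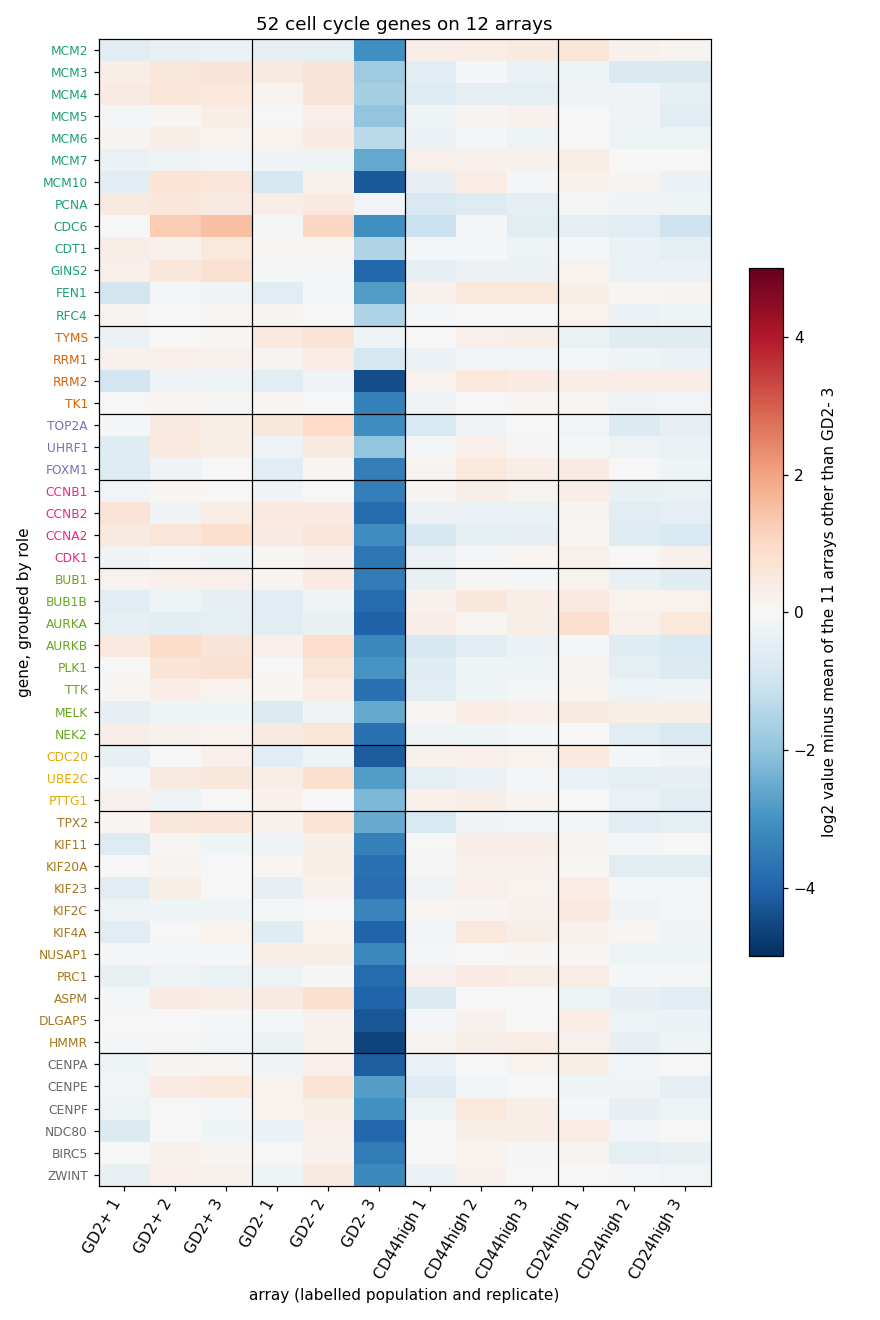
Heat map of the 52 cell cycle genes (rows, grouped by role) on the 12 arrays (columns, labelled population and replicate). Colour gives the log2 value minus that gene's mean over the 11 arrays other than GD2- replicate 3. That array is lower in nearly every row, with PCNA and TYMS the least.

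GD2- replicate 3 differed from the other GD2- arrays in 46 of the 52 genes by at least 2 log2 units downward. Among all 54613 probe sets tested the same drop was seen in 305, or 0.558%, and a rise of that size in 210, or 0.385%. The median drop of the 52 genes was -3.44 log2 units, or 10.8-fold. It was the lowest of the 12 arrays for 50 of the 52 genes, against 15.1% of all probe sets. For 49 of them it lay at least 1 log2 unit below the lowest of the other 11 arrays, against 0.883% of all probe sets, and the exceptions were PCNA, TYMS and RRM1. These shares are over probe sets of all signal levels and were not matched for signal. The median of the 52 genes had a mean over the other 11 arrays above that of 96.14% of probe sets. Because the RNA came from a bulk of cells, fewer cells in cycle and less of each RNA per cell cannot be told apart.

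Genes of mitosis differed most. In the group of motors and spindle proteins, the median difference of GD2- replicate 3 from the mean of the other GD2- arrays was -3.77 log2 units, with all 11 genes at least 2 units lower. ASPM, which organises spindle poles, differed by -4.64, HMMR, a microtubule-binding protein of the spindle, differed by -4.57 and DLGAP5, which stabilises microtubules near chromosomes, by -4.34. The smallest difference in that group was -2.98, of TPX2, which activates Aurora A on the spindle. Cyclins and their kinase had a median of -3.69 over 4 genes, from -4.33 (CCNB2) to -3.34 (CCNB1). Mitotic kinases and checkpoint genes had a median of -3.68 over 8 genes, from -4.28 (NEK2, a centrosome kinase) to -2.13 (MELK). Centromere and kinetochore genes had a median of -3.46 over 6 genes, from -4.17 (CENPA, the centromeric histone) to -3.19 (CENPE, a kinetochore motor).

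Genes of DNA replication differed less and less evenly. The 13 genes of helicase loading and the replication fork had a median of -2.31, and 9 of them were at least 2 units lower. MCM10 (-3.87), GINS2 (-3.85) and CDC6 (-3.53), which load or activate the replicative helicase, differed as much as mitotic genes. The 6 subunits of that helicase ring differed by -2.63 (MCM2), -2.36 (MCM7), -2.31 (MCM3), -2.11 (MCM5), -2.09 (MCM4) and -1.64 (MCM6). Both CDT1, which brings the ring to origins, and RFC4, a subunit of the clamp loader, were at -1.61, and PCNA, the sliding clamp itself, was at -0.57. In nucleotide supply, RRM2, the regulated subunit of ribonucleotide reductase, differed by -4.07 and its partner RRM1 by only -1.13. TK1, the thymidine kinase of S phase, differed by -3.41 and TYMS, which makes thymidylate, by -0.83.

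**Figure D2:**
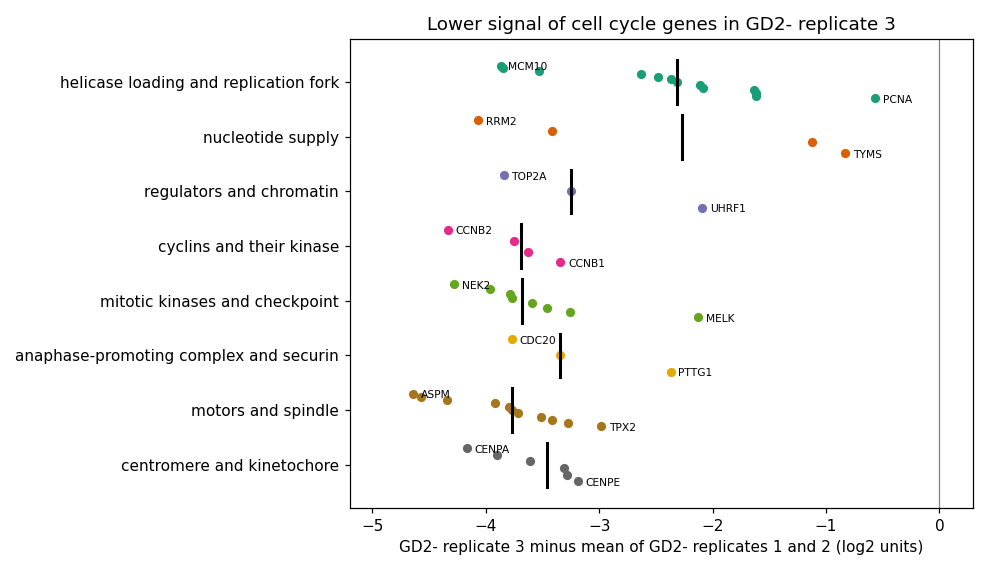
Difference of GD2- replicate 3 from the mean of GD2- replicates 1 and 2 (log2 units, horizontal axis) for each of the 52 genes, in rows by role. Points are genes, black bars are row medians, and the genes at each end of a row are named. Mitotic rows have medians from -3.77 to -3.35, and the replication and nucleotide rows reach from -4.07 up to -0.57.

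Promoters of the genes at both ends of this range are shown to give the letters behind the motif counts that follow, and no link between motif and difference was tested. Promoter sequences of 300 bases, from 250 before to 50 after the start of each gene, came from RefSeq (GRCh38.p14) and were found for 44 of the 52 genes. AURKA, BIRC5, FOXM1, MCM4, MCM5, TPX2, TTK and UBE2C had no entry. The 120 bases before the start follow for the 3 genes with the largest and the 3 with the smallest difference on GD2- replicate 3, read 5′ to 3′ on the strand of the gene. Capitals mark 3 kinds of motif on either strand, which may overlap. The CHR was searched as TTTGAA or TTCGAA. The CCAAT box was searched by its name's letters. An E2F-like motif is any of 4 words, spelled TTTGGCG in one form, TTTCCCG in another, TTTGCCG in a further form and TTTCGCG in the last.
ASPM: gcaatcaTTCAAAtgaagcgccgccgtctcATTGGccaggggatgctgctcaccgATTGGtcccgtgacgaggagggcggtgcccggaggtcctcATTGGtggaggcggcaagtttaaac
HMMR: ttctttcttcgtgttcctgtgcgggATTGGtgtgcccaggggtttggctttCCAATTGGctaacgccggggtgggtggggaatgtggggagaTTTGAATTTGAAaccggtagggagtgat
DLGAP5: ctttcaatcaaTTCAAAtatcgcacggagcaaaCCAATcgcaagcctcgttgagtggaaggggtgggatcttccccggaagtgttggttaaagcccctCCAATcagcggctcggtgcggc
RRM1: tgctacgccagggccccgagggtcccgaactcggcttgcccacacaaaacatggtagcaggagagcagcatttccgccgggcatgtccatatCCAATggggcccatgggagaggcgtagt
TYMS: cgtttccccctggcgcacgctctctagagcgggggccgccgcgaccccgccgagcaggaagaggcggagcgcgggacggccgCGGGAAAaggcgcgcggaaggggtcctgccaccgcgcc
PCNA: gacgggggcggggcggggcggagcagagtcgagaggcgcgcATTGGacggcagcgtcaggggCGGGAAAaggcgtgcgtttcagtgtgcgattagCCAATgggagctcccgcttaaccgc

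These windows lie in GRCh38.p14 at chr1:197146670-197146789 on the minus strand for ASPM, chr5:163460512-163460631 on the plus strand for HMMR and chr14:55191586-55191705 on the minus strand for DLGAP5. They lie at chr11:4094565-4094684 (plus) for RRM1, chr18:657533-657652 (plus) for TYMS and chr20:5126623-5126742 (minus) for PCNA. All lie directly upstream of the annotated start. In these windows ASPM, HMMR and DLGAP5 have both a CHR and CCAAT boxes and no E2F-like motif. TYMS has an E2F-like motif alone, PCNA an E2F-like motif and CCAAT boxes, and RRM1 a CCAAT box, with a CHR elsewhere in its 300 bases, so that over the longer window RRM1 has the same kinds of motif as ASPM, HMMR and DLGAP5.

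Over the full 300 bases, a CHR was found in 21 of the 44 member promoters (47.7%), against 16.6% of all 27305 promoters in the table. A CCAAT box was found in 33 of 44 (75.0%, against 35.7%), and both together in 19 (43.2%, against 6.6%). An E2F-like motif was found in 16 of 44 (36.4%, against 8.7%). By role, a CHR was found in 8 of 10 promoters of motors and spindle genes and 4 of 5 of centromere and kinetochore genes. It was in 3 of 6 of mitotic kinases and checkpoint genes and 2 of 4 of cyclins and their kinase. Regulators and chromatin and the anaphase-promoting complex and securin had it in 1 of 2 each. Nucleotide supply had it in 1 of 4, and helicase loading and replication fork genes in 1 of 11. E2F-like motifs were in 9 of 11 promoters of that replication group and 2 of 10 of motors and spindle genes. They were in 2 of 5 of centromere and kinetochore genes and 1 of 4 each of nucleotide supply and cyclins and their kinase. Regulators and chromatin had 1 of 2. None was found in the 6 promoters of mitotic kinases and checkpoint genes or the 2 of the anaphase-promoting group. Such matches describe letters in these windows and were not tested.

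The 3′ and 5′ RNA controls of GD2- replicate 3 lay within the range of the other GD2 arrays, while its agreement with the other GD2- arrays over all probe sets was lower. The 3′ minus 5′ difference of the beta-actin control probe sets, which grows when RNA is degraded or copied in part, was 0.21 log2 units there and between 0.053 and 0.26 over the 6 arrays of the GD2 sort. For the GAPDH control probe sets it was 0.043, within -0.059 to 0.086. The array's median was 5.456, and it had 305 probe sets at least 2 log2 units below and 210 above the mean of its group mates, where the other 11 arrays had at most 139 and 98. Its correlation with the other GD2- arrays over all probe sets, which are not independent replicates, was 0.9738 and 0.9768, against 0.9873 between those 2. With the GD2+ arrays it was 0.9514 to 0.9604 for GD2- replicate 3 and 0.9703 to 0.9863 for GD2- replicates 1 and 2. Of the 52 genes, only MCM10 and AURKB had values below that array's median over all probe sets, and whether a value lay above background was not tested.

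Whether GD2+ and GD2- cells differ in cell cycle RNA was addressed first. None of the 52 genes passed the threshold (limma over all 12 arrays and 54613 probe sets, Benjamini-Hochberg adjusted p below 0.05), while 5.09% of all probe sets did, 2.42% as higher in GD2+ and 2.67% as lower. At an unadjusted p below 0.05 there were 3 genes, and the share of all probe sets at that threshold was not counted. The smallest adjusted p was 0.225 (GINS2). All but TYMS had a higher mean on GD2+ arrays, with a median log2 fold change of 1.03 against 0.01 over all probe sets. That median rested on 1 array: without GD2- replicate 3 it was -0.05, with 16 genes positive and 36 negative, and without GD2- replicate 2 it was 1.74. The intervals narrowed as well, from a median width of 3.08 to 0.835 log2 units. Without that array, the 95% interval of the difference lay inside 1 log2 unit either way for 49 of 52 genes.

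CCNB1 (probe set 214710_s_at), the cyclin that drives entry into mitosis, shows the pattern. Its log2 values were 12.34, 12.57 and 12.47 on GD2+ arrays and 12.29, 12.53 and 9.07 on GD2- arrays, while CD44high arrays had 12.63, 12.77 and 12.68 and CD24high arrays 12.81, 12.13 and 12.16. Only GD2- replicate 3 was apart, and the other 5 values of the GD2 sort lay between 12.29 and 12.57. The log2 fold change of GD2+ against GD2- was 1.16 (SE 0.68, limma adjusted p = 0.43). Without that array it was 0.05 (95% interval -0.36 to 0.46).

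CDK1 (203213_at), the kinase that cyclin B activates, had log2 values of 11.92, 12.06 and 11.89 on GD2+ arrays and 12.19, 12.32 and 8.50 on GD2- arrays. It had 11.80, 12.06 and 12.19 on CD44high and 12.36, 12.11 and 12.32 on CD24high arrays. GD2- replicates 1 and 2 were thus above all 3 GD2+ arrays and replicate 3 far below them. The difference of GD2+ from GD2- was 0.95 (SE 0.75, limma adjusted p = 0.595) with all arrays and -0.30 (95% interval -0.59 to -0.0035, limma adjusted p = 0.338) without replicate 3. CCNA2, the cyclin of S phase and early mitosis, had 10.40, 10.57 and 10.75 on GD2+ and 10.37, 10.56 and 6.83 on GD2- arrays. GD2- replicate 2 lay among the GD2+ values, replicate 1 just below them and replicate 3 far below.

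TOP2A (201292_at), the topoisomerase that untangles replicated chromosomes, had 11.21, 11.75 and 11.60 on GD2+ and 11.87, 12.25 and 8.22 on GD2- arrays. CD44high arrays had 10.53, 11.14 and 11.31 and CD24high arrays 11.17, 10.64 and 10.88. GD2- replicates 1 and 2 were the highest of the 12 arrays and replicate 3 the lowest. The difference of GD2+ from GD2- was 0.74 (SE 0.79, limma adjusted p = 0.72), and -0.54 without replicate 3 (95% interval -1.09 to 0.011). In the other regulators GD2- replicates 1 and 2 did not stand above the GD2+ arrays in this way. FOXM1, which activates mitotic genes, had 9.24, 9.66 and 9.86 on GD2+ and 9.31, 9.91 and 6.36 on GD2- arrays. UHRF1, which copies DNA methylation behind the fork, had 10.76, 11.86 and 11.67 on GD2+ and 11.12, 11.83 and 9.38 on GD2- arrays.

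Among kinases and ubiquitin ligase components, GD2- replicate 3 was again the lowest array, while the other arrays had no common order. AURKA, the kinase of spindle poles, had 11.01, 10.98 and 11.08 on GD2+ and 11.001, 11.14 and 7.48 on GD2- arrays. PLK1, a kinase that acts throughout mitosis, had 9.63, 10.28 and 10.39 on GD2+ and 9.61, 10.22 and 6.65 on GD2- arrays. MELK, a kinase enriched in dividing cells, had 11.89, 12.06 and 12.06 on GD2+ and 11.59, 12.10 and 9.72 on GD2- arrays. In all 3 kinases GD2+ and GD2- arrays overlapped once replicate 3 was set aside. CDC20, which activates the anaphase-promoting complex, had 11.53, 11.91 and 12.15 on GD2+ and 11.31, 11.67 and 7.72 on GD2- arrays. UBE2C, its ubiquitin-conjugating enzyme, had 11.30, 11.79 and 11.91 against 11.69, 12.14 and 8.57. PTTG1, the securin that the complex destroys, had 12.64, 12.19 and 12.40 against 12.63, 12.45 and 10.17. It is one of 2 genes here with an _x_at probe set, which may also detect near-identical copies.

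Spindle and kinetochore genes also had their lowest value on GD2- replicate 3. HMMR had 11.34, 11.38 and 11.31 on GD2+ and 11.14, 11.67 and 6.84 on GD2- arrays. KIF20A and KIF4A are motors of the dividing cell's central spindle. KIF20A had 10.66, 10.81 and 10.67 against 10.77, 10.96 and 6.94. KIF4A had 8.99, 9.54 and 9.72 against 8.94, 9.69 and 5.52. GD2- replicate 3 was the lowest of the 12 arrays in each. Among centromere genes, CENPA had 9.58, 9.95 and 9.87 on GD2+ and 9.65, 10.05 and 5.68 on GD2- arrays. BIRC5, the survivin subunit that brings Aurora B to centromeres, had 10.96, 11.19 and 11.11 against 11.01, 11.21 and 7.51. CENPF, a late-cycle kinetochore protein, had 9.37, 9.57 and 9.52 against 9.78, 9.90 and 6.55, so its first 2 GD2- values were above all GD2+ values.

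Helicase-loading genes varied between replicates as well as on GD2- replicate 3. CDC6, which loads the helicase, had the widest range over the other 11 arrays, 2.57 log2 units, where the median gene had 1.09 and TK1, at the other end, 0.30. Its log2 values were 8.77, 10.01 and 10.23 on GD2+ arrays, 8.63, 9.75 and 5.66 on GD2-, 7.66, 8.64 and 8.21 on CD44high and 8.24, 8.22 and 7.72 on CD24high arrays. In both GD2 populations replicate 1 was over 1 unit lower than replicate 2. In MCM10 too replicate 1 was lower than replicate 2 in both populations, with 9.03, 10.24 and 10.17 on GD2+ and 8.72, 9.76 and 5.37 on GD2- arrays. GINS2, part of the active helicase, had 11.09, 11.40 and 11.59 on GD2+ and 10.72, 10.79 and 6.90 on GD2- arrays, so that the populations did not overlap. Its difference was 1.89 (SE 0.78, limma adjusted p = 0.225), and 0.61 without replicate 3 (SE 0.17, limma adjusted p = 0.0976). CDT1 did not overlap either, at 7.75, 7.67 and 7.97 against 7.56, 7.51 and 5.92 (limma adjusted p = 0.239 with all arrays, 0.411 without replicate 3). MCM5 had 8.96, 9.15 and 9.38 against 9.06, 9.31 and 7.07, and TK1 9.88, 9.94 and 9.91 against 9.98, 9.83 and 6.49.

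TYMS (202589_at) was the exception in the GD2 sort. This gene encodes thymidylate synthase, the target of fluorouracil, and its RNA is translated under feedback from its own protein. Its log2 values were 12.04, 12.34 and 12.40 on GD2+ and 12.82, 12.95 and 12.05 on GD2- arrays. GD2- replicates 1 and 2 were above every GD2+ array, and replicate 3 was among them. With all arrays the difference of GD2+ from GD2- was -0.35 (SE 0.21, limma adjusted p = 0.438). Without GD2- replicate 3, TYMS was lower in GD2+ by 0.63 log2 units (-0.63, SE 0.14, limma adjusted p = 0.0357). It was the only one of the 52 genes past the threshold. Of all probe sets 3.89% passed, 1.98% as higher and 1.91% as lower. At an unadjusted p below 0.05 there were 4 genes, again without a count over all probe sets. This fit rests on 2 GD2- arrays and leaves out the 1 GD2- array whose TYMS value lay among the GD2+ values. That array was singled out after its values were seen.

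**Figure D3:**
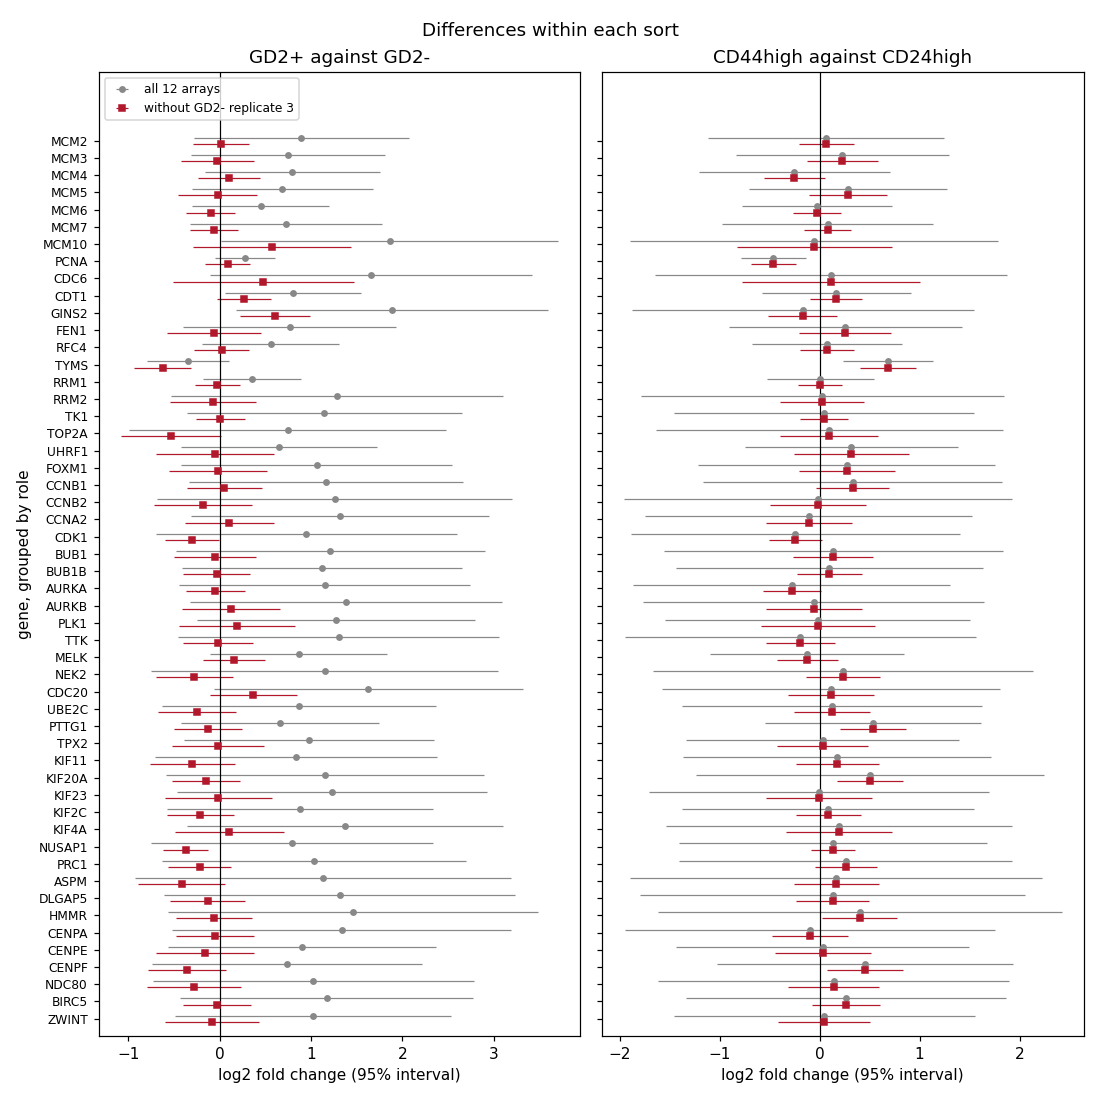
Log2 fold change of each of the 52 genes (rows, in order of role) with its 95% interval, for GD2+ against GD2- (left) and CD44high against CD24high (right). Grey circles are from all 12 arrays and red squares from the 11 arrays without GD2- replicate 3. In the left panel the grey circles centre on 1.03 and the red squares on -0.05.

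CD44high and CD24high cells were compared next, in a sort where no array stood apart as far as GD2- replicate 3 did. None of the 52 genes passed the threshold (limma, all 12 arrays), against 3.11% of all probe sets (1.58% higher, 1.53% lower in CD44high). An unadjusted p below 0.05 was seen for 2 genes, without a count over all probe sets. The median log2 fold change was 0.10, with 37 genes higher and 15 lower on CD44high arrays, and the range was -0.46 (PCNA) to 0.68 (TYMS). Leaving out single arrays of this sort gave medians from 0.02 to 0.22. The fit shares one estimate of spread over all populations, which GD2- replicate 3 widens. When this array was left out, TYMS and PCNA passed, 1 in each direction, against 4.47% of all probe sets (2.36% higher, 2.11% lower), and the 95% interval of every gene's difference lay inside 1 log2 unit either way. A fit of the 6 arrays of this sort alone also gave 2 genes, against 6.09% of all probe sets.

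TYMS had log2 values of 12.32, 12.55 and 12.60 on CD44high and 11.97, 11.72 and 11.73 on CD24high arrays, with no overlap. It was higher by 0.68 in CD44high cells (SE 0.13, limma adjusted p = 0.011 without GD2- replicate 3, and 0.129 with it). PCNA (201202_at) had 11.54, 11.66 and 11.80 on CD44high and 12.23, 12.10 and 12.06 on CD24high arrays, also with no overlap. How many of all probe sets had no overlap in this sort was not counted. The PCNA difference was -0.46 (SE 0.10, limma adjusted p = 0.0247 without GD2- replicate 3, and 0.157 with it). By contrast CCNB1 differed by 0.33 (95% interval -0.039 to 0.70, 11 arrays) and CDK1 by -0.24 (95% interval -0.51 to 0.021, 11 arrays). KIF20A, at 10.74, 10.87 and 10.86 against 10.72, 10.11 and 10.13, and PTTG1, at 12.70, 12.72 and 12.58 against 12.42, 12.10 and 11.89, were next, with limma adjusted p of 0.108 and 0.0811 over 11 arrays.

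Whether the change within a sort was the same in both sorts was tested for every probe set. This contrast is called the difference between the sorts, and TYMS and PCNA are described here. The TYMS change from GD2- to GD2+ minus the change from CD24high to CD44high was -1.03 (SE 0.29, limma adjusted p = 0.0499), the only call among the 52 genes, against 9.17% of all probe sets (5.08% in the negative direction). This call was lost with the replicate number as a block (limma adjusted p = 0.0579) and under median centring of the arrays (limma adjusted p = 0.0592). A fit without probe sets ending in _x_at or _s_at also lost it (limma adjusted p = 0.0541). The same held when any 1 of the 11 arrays other than GD2- replicate 3 was left out. With GD2- replicate 3 left out instead, the value was -1.31 (SE 0.19, limma adjusted p = 0.00139). For PCNA the same contrast of the 2 changes was 0.74 (SE 0.21, limma adjusted p = 0.0501), and 0.55 without GD2- replicate 3 (SE 0.15, limma adjusted p = 0.0458). Without that array these were the only 2 calls among the 52 genes, 1 in each direction, against 8.97% of all probe sets (4.08% positive, 4.89% negative). On GD2+ arrays PCNA stood at 12.74, 12.86 and 12.75 and on GD2- arrays at 12.63, 12.77 and 12.13.

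**Figure D4:**
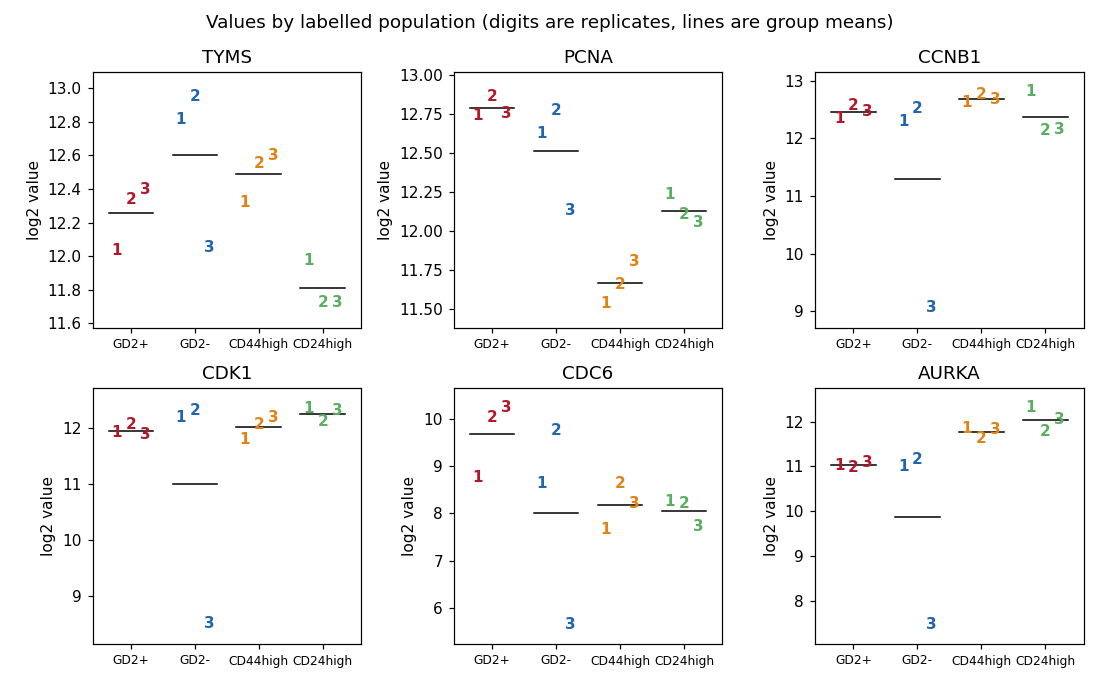
Log2 values of 6 cell cycle genes by labelled population. Digits are the replicate numbers of the arrays and lines are group means, each panel has its own vertical range. GD2- replicate 3 is the lowest array for CCNB1, CDK1, CDC6 and AURKA, whereas TYMS and PCNA stay at 12.05 and 12.13 on it.

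Comparisons across the sorts pair populations measured on arrays with other control values. The beta-actin 3′ minus 5′ difference was 3.35 to 4.66 log2 units on the 6 arrays of the CD44/CD24 sort and 0.053 to 0.26 on the 6 of the GD2 sort. The mean of the poly-A spike controls was 8.64 to 8.94 against 3.81 to 4.09. Sort and handling of the arrays cannot be told apart here, and any difference across sorts holds for both.

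For GD2+ against CD44high, PCNA alone passed with all 12 arrays, higher by 1.12 in GD2+ (SE 0.15, limma adjusted p = 0.0002), where 28.4% of all probe sets passed. Without GD2- replicate 3, 22 genes passed, 14 higher and 8 lower in GD2+, against 14.9% and 17.2% of all probe sets (32% together), and with the 6 arrays of these populations alone 27 passed, against 31.2% of all probe sets. CDC6 (1.50, limma adjusted p = 0.0152), AURKB (1.24, limma adjusted p = 0.00136), CCNA2 (1.17, limma adjusted p = 0.00098) and MCM4 (1.04, limma adjusted p = 0.000204) were among the higher ones over 11 arrays. FEN1, which trims Okazaki fragments (-0.81, limma adjusted p = 0.0125), RRM2 (-0.80, limma adjusted p = 0.00814), MCM2 (-0.79, limma adjusted p = 0.000675) and AURKA (-0.74, limma adjusted p = 0.0014) were among the lower ones. Thus genes of one complex, such as MCM4 and MCM2, had opposite signs across the sorts. The median over the 52 genes was 0.04, and -0.07 over all probe sets.

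For GD2- against CD24high, 4 genes passed with all 12 arrays, against 37.5% of all probe sets (17.5% higher and 20% lower in GD2-). TYMS was higher in GD2- by 0.80 (limma adjusted p = 0.0104), while AURKA (-2.17, limma adjusted p = 0.0348), MCM2 (-1.62, limma adjusted p = 0.0339) and MELK (-1.50, limma adjusted p = 0.0198) were lower. Single arrays decided this count. It was 23 without GD2- replicate 3, 15 without GD2- replicate 2 (33.3% of all probe sets) and 7 without GD2- replicate 1 (33.8%). It was 1, 2 and 2 without CD24high replicate 1, 2 and 3, where 32.9%, 31.6% and 31.7% of all probe sets passed. The share of the 52 genes was thus below that of all probe sets in all of these fits but the one without GD2- replicate 3. That array widens the estimate of spread for these genes in every fit that keeps it. The median width of their 95% intervals was 3.08 log2 units with all 12 arrays and 0.835 without that array. A low share in fits that keep it is therefore no result about the 52 genes. Leaving out GD2- replicate 3 also turned the direction of most genes, from 48 of 52 with a lower mean in GD2- to 35 of 52 with a higher one, and 18 genes then passed as higher and 5 as lower, against 17.6% and 18.5% of all probe sets (36.1% together). TOP2A, for example, was at -0.12 with all arrays and at 1.16 without it (limma adjusted p = 0.00395). AURKA was then at -0.97 (limma adjusted p = 0.000417) and TYMS at 1.08 (limma adjusted p = 0.000171).

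Over the 11 arrays, 15 genes passed in both comparisons across the sorts, 10 higher in both GD2 populations and 5 lower in both. Of all probe sets 21.2% passed in both, 10.5% as higher in both and 8.84% as lower in both. The lower ones were AURKA, BUB1B, MCM2, MELK and RRM2, and the higher ones included PCNA, CCNA2, AURKB, MCM3, MCM4 and MCM6. These comparisons share no array, but both carry the difference between the sorts in control values given above.

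**Figure D5:**
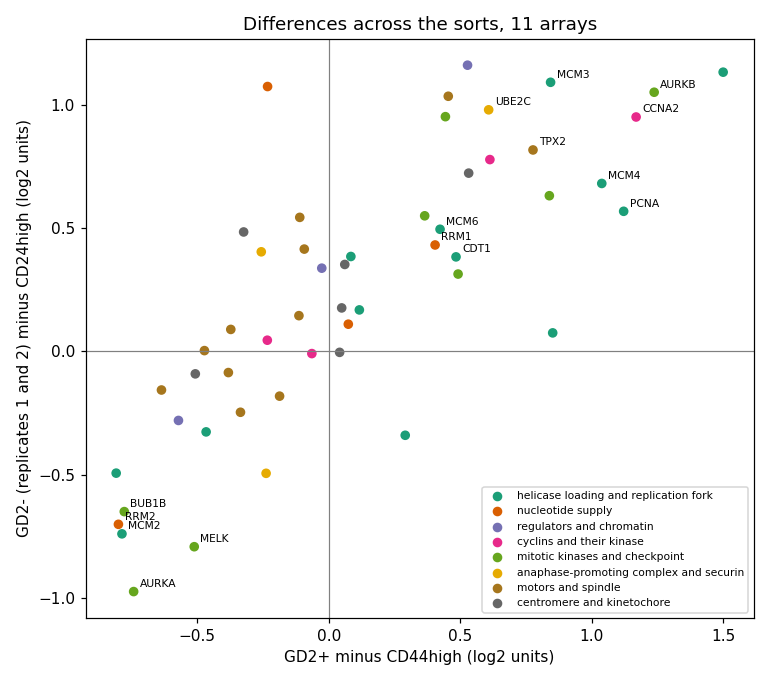
Difference of GD2+ from CD44high (horizontal) and of GD2- replicates 1 and 2 from CD24high (vertical) in log2 units for the 52 genes, from the fit of 11 arrays. Points are genes coloured by role, and the 15 genes past the threshold in both comparisons are named, 10 at upper right and 5 at lower left.

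Other genes of the pathway could be looked up only in the authors' deposited tables, which list 600 rows for the GD2 sort and 578 for the CD44/CD24 sort. None of the 52 genes was in either of the authors' deposited tables. Of 100 further cell cycle genes, among them CDK inhibitors, cyclins of G1, the RB and E2F families and other S phase and mitosis genes, 1 was listed. It was RPA1, a subunit of the protein that coats single-stranded DNA, 3.44-fold apart in the authors' deposited table of GD2+ and GD2- cells (adjusted p = 0.000476), with the direction not named in its header. What selected the entries of the authors' deposited tables is not stated, and a gene that is missing from them is not thereby shown to be equal.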

How the data were processed

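RNA of sorted HMLER cells was copied from an oligo(dT) primer, labelled with biotin and hybridized to Affymetrix arrays, per the labels' protocols. Log2 values deposited by the authors were used unchanged. That they are log2 was read from the values, and how background, normalization and probe summary were done is not stated. Each of the authors' deposited tables gives an adjusted p-value and a ratio (fold), without naming test or numerator.

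Array titles set the groups. Leaving out 62 control probe sets, 54613 were fitted in limma (3.58.1, R 4.3.3) as 4 group means over 12 arrays, with moderated variances and p-values adjusted by Benjamini-Hochberg over all of them at 0.05. The number of arrays limits the precision. Intervals are 95% and unadjusted. The fit was tested on simulated data. The 52 genes, their roles and the lists were chosen with earlier results of these data known, and the gene names of probe sets came with the list. Values by array are given for TOP2A, CCNB1, CDK1 and PCNA, the 2 genes of each role with the smallest adjusted p in each comparison within a sort, and the 3 with the largest difference between the sorts. Genes named outside this rule, such as AURKB, ASPM and DLGAP5, were picked after their values were seen. Lists of other pathway genes and cell type markers, and averages over several probe sets of a gene, were planned on the arrays and not run there, since the tables used here pair no other probe sets with genes.

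Deviations from the group mean were correlated over probe sets between arrays of the same number. For GD2+ and GD2- r was 0.47, 0.39 and 0.034, and for CD44high and CD24high 0.088, 0.35 and 0.079. Across the sorts, r was 0.21, 0.19 and -0.012 for GD2+ and CD44high, and 0.140, 0.104 and 0.130 for GD2- and CD24high. The labels state no pairing and the main fit used none, so a replicate block was run as an alternative only. Motifs were searched as exact letters on both strands. Alternatives covered normalization, dim probe sets, variance model, arrays in the fit, a replicate block, a minimum fold, probe sets ending in _x_at or _s_at and each array left out. Fits without GD2- replicate 3 for comparisons that do not use GD2-, and with a block for GD2- against CD24high, were chosen after the data were seen.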

Additional observations from a re-analysis of the deposited data

Results flagged for a closer look

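TYMS was the one gene past the threshold in the test of the difference between the sorts, by a narrow margin. GD2+ against GD2- minus CD44high against CD24high was -1.03 log2 units (SE 0.29, limma adjusted p = 0.0499), since TYMS had a lower mean on GD2+ than on GD2- arrays and a higher one on CD44high than on CD24high arrays. The call was lost with the replicate number as a block (limma adjusted p = 0.0579) and under median centring (limma adjusted p = 0.0592). A fit without probe sets ending in _x_at or _s_at lost it too (limma adjusted p = 0.0541). So did leaving out any 1 of the arrays other than GD2- replicate 3. Outlying arrays within a population were not tested, because each has 3 arrays.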

How the results depend on the processing

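Counts of the 52 genes past the threshold depended on the setting in every comparison but GD2+ against GD2-, where only leaving out single arrays changed the count. The cause was not tested. Shares of all probe sets were counted only for the settings whose shares are given further up. In the other settings, whether the 52 genes moved more than all probe sets cannot be told. For the difference between the sorts, 1 gene passed, with 2 under quantile normalization, without the dimmest 40% of probe sets and with trended and robust variance, 0 under median centring, 0 with the replicate block and 0 among the 31 genes left without _x_at and _s_at probe sets. Leaving out single arrays gave 0 to 2, and a median from -0.13 to 1.54. For CD44high against CD24high, 0 became 2 with only the arrays compared, and 2 without GD2- replicate 3. For GD2+ against CD44high, 1 became 27 and 22 in the same settings. For GD2- against CD24high, 4 became 1 with only the arrays compared, 2 without _x_at and _s_at probe sets, 22 without GD2- replicate 3 and with the replicate block, and 1 to 23 when single arrays were left out. For GD2+ against GD2-, leaving out single arrays gave 0 to 1, and every other setting gave 0.

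In GD2- against CD24high, leaving out single arrays moved TOP2A from -0.85 to 1.16, CCNA2 from -0.91 to 0.95, CDT1 from -0.44 to 0.38, UBE2C from -0.81 to 0.98 and KIF20A from -1.46 to 0.54, the upper value each time without GD2- replicate 3. Without that array and with the replicate block, TOP2A was at 1.23, CCNA2 at 0.95, UBE2C at 1.05 and CDC6 at 1.18. Among values of single genes, 9 turned direction past the threshold, 34 passed it and 21 lost it, while 1827 kept direction and side and 82 changed sign without passing it in either setting. Among genes with values by array, the replicate block with all arrays changed no call other than that of TYMS in the difference between the sorts. For GD2- against CD24high the block gave 5 genes against 4, and its share of all probe sets was not counted. Averages over all probe sets of a gene were not run.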
